A study of Mus musculus with 4 samples.

Results

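The 8 heat shock chaperone genes Hspb1, Cryab, Hspb8, Hspa1a, Hspa1b, Hspa5, Hspa8 and Dnajb1 were followed across the cell classes of injured and uninjured mouse spinal cord. They were taken by name from the gene rows of both expression matrices, 8 of 32287 genes, and each had at least 1 UMI (a counted RNA molecule) in each library. The genes were chosen by their levels and injured-to-uninjured ratios over these cell classes, which were already known, so those values are given here as a description and not as a test.

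The cells came from adult Cx30-tdTomato mice, in which a tamoxifen-induced Cre recombinase under the Cx30 (Gjb6) promoter labels astrocytes with tdTomato. All mice of both groups had received an enhancer library in adeno-associated virus intravenously. The injured group was sampled 3 days after a spinal cord contusion and the uninjured group at the same level of the cord, in segments of 5 mm. Tissue was digested with papain, tdTomato+ cells were sorted, and 1 library of 10x 3' single-cell RNA was made per condition from pooled animals of both sexes (1 to 2 per sex, per the series' text).

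Heat shock proteins are chaperones that keep other proteins from misfolding and aggregating. The small heat shock proteins (Hspb1, Cryab and Hspb8) hold unfolded proteins without using ATP. The HSP70 proteins (Hspa genes) refold them in ATP-driven cycles that J proteins such as Dnajb1 start. Hspa8 is the constitutive HSP70 of the cytosol, Hspa1a and Hspa1b encode the inducible one, and Hspa5 (BiP) is the HSP70 of the endoplasmic reticulum. Induction of the cytosolic set runs through heat shock factors, which bind repeats of GAA and TTC in promoters, and induction of Hspa5 runs through the unfolded protein response. Small heat shock proteins are long known in reactive astrocytes.

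The genes lie on 5 mouse chromosomes (GENCODE M21, GRCm38, all protein coding). Hspb1 is at chr5:135887919-135889563 on the plus strand and Hspb8 at chr5:116408491-116422864 on the minus strand. Cryab (chr9:50751325-50756636) and Hspa8 (chr9:40800984-40810087) share chromosome 9, both on the plus strand. Hspa1a (chr17:34969190-34972156) and Hspa1b (chr17:34956436-34959238) are neighbouring genes of 1 exon each on the minus strand. Hspa5 is at chr2:34771970-34777547 and Dnajb1 at chr8:83608193-83612653, both on the plus strand.

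The upstream 250 bases of 3 members are shown because they hold the letters that heat shock factors or the unfolded protein response factors are known to bind. The sequences are RefSeq windows of GRCm38.p6, read 5′ to 3′ on the strand of the gene and ending at the base before the RefSeq start, which for Hspa5 lies downstream of the GENCODE start given above. Capitals mark GAANNTTC in Hspb1 and Hspa1a, and the ER stress element in Hspa5.
Hspb1, chr5:135887669-135887918, plus strand: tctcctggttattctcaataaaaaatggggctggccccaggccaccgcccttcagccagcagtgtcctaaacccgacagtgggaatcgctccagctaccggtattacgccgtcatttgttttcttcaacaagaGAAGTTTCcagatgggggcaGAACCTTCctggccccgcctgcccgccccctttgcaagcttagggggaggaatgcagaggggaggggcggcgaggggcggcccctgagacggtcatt
Hspa1a, chr17:34972157-34972406, minus strand: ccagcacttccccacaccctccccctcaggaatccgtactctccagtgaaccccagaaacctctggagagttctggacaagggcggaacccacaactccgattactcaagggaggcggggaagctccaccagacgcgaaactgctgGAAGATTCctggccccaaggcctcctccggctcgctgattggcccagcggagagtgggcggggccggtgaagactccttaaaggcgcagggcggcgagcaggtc
Hspa5, chr2:34771840-34772089, plus strand: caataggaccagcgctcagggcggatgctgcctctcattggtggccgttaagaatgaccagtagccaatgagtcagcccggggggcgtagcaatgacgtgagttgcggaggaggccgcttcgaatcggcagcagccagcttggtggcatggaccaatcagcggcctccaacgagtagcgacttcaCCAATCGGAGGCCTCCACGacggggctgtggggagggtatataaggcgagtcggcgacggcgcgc
The Hspa1b window matched that of Hspa1a at 247 of 250 bases in place. Windows were held for 6 of the 8 members, those other than Cryab and Hspa8. In the full windows of 300 bases (250 before to 50 after the start), GAANNTTC occurred 2 times in Hspb1 and 1 time each in Hspb8, Hspa1a and Hspa1b, and TTCNNGAA in none of the 6. Of 32851 windows of all genes, 7.86% held GAANNTTC and 8.52% held TTCNNGAA, with 15.1% holding either; both motifs read the same on either strand. The ER stress element, searched on both strands, occurred in Hspa5 and in 0.119% of all windows. A match is a description of letters in these windows and not a bound site.

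After a filter on UMIs, 879 injured and 4159 uninjured cells were compared, with medians of 6816 and 3343 UMIs per cell, and 7 cell barcodes occurred in both libraries. The labels name both sexes in each condition, yet 2 of the uninjured cells were scored female against 2770 scored male, where the injured library had 250 and 315. Clusters made without the 8 chaperones were named by fixed markers, and 12 of 14 clusters took the name of a class. The 2 left unnamed scored highest for astrocyte markers but had leading neuron genes. They held 57 injured and 960 uninjured cells, 6.48% and 23.1% of the libraries, which were left out of the astrocyte-like class. The astrocyte-like class held 386 injured and 2999 uninjured cells, with all 8 astrocyte markers detected and a summed marker level of 9588 and 12046 CPM (UMIs of a gene scaled to a total of 1e6 per class and library). The sort also held ependymal-like (144 and 31 cells), microglia-like (126 and 31), endothelial-like (70 and 26), fibroblast-like (43 and 95) and oligodendrocyte precursor (OPC)-like cells (40 and 14). Most injured astrocyte-like cells (83.4%) lay in a cluster led by Gfap, Lcn2 and Vgf that held 0.433% of the uninjured ones, so different clusters made up the class in each condition. With 1 library per condition there is no replicate spread, and no p-value is given. Intervals are exact 95% intervals that cover counting error only, and each difference compares 2 libraries.

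Small heat shock proteins stood far apart between the conditions in astrocyte-like cells, the inducible HSP70 pair was nearly absent from them, and Hspa5 and Hspa8 differed by smaller folds. Of the 8 chaperones, 6 reached 10 CPM in at least 1 condition, and 5 of those 6 were at least 2-fold higher in injured cells with an interval clear of no difference, against 16.7% of 10162 genes. None was 2-fold lower, against 7.58% of all genes. The chaperones had known levels in this contrast when they were chosen, and nothing is read from these counts. Their summed level was 3665 CPM in injured against 823 CPM in uninjured astrocyte-like cells, and the median log2 ratio of the 6 was 2.14 beside 0.085 for all genes.

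Hspb1, which also steadies actin filaments, had the widest gap of the 8. It measured 933 CPM (894 to 973) in injured astrocyte-like cells from 2167 UMIs, and 5.87 CPM (4.54 to 7.47) in uninjured ones from 66 UMIs. The log2 ratio, with 1 CPM added to each side as for all log2 ratios here, was 7.09 (6.96 to 7.69), which ranked 8 among 10162 genes. The interval beside each log2 ratio is that of the ratio without the added CPM, so the ratio need not lie at its middle. In the male-scored cells alone the log2 ratio of Hspb1 was 6.55. A single uninjured cell decided most of the uninjured level: it held 53 of the 66 UMIs (80.3%), and without the richest cell of each library the uninjured level was 1.16 CPM and the log2 ratio 8.70. The same uninjured cell carried 360 Cryab UMIs, 4.85% of all its RNA, along with 49 UMIs of Hspa8 and 59 of Hmox1, a heme-degrading stress enzyme. It lay in the Gfap-led cluster, and its barcode was not shared with the injured library.

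Cryab, the alpha-B crystallin that binds intermediate filaments such as Gfap, was present in astrocyte-like cells of both libraries. Its level was 974 CPM (934 to 1015) after injury and 142 CPM (135 to 149) without injury, a log2 ratio of 2.77 (2.69 to 2.87). Without the richest cell of each library the ratio was 2.99, and in male-scored cells 2.06. Unlike Hspb1, Cryab was spread over the uninjured cells, with 1593 UMIs in 903 of 2999 of them. Hspb8, a partner of Bag3 in selective autophagy, stood at 68.0 CPM (57.8 to 79.5) against 6.59 CPM (5.17 to 8.27), a log2 ratio of 3.19 (2.96 to 3.79). Gfap, the intermediate filament that marks reactive astrocytes, was at 2617 and 63.3 CPM in the same cells, a log2 ratio of 5.35.

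Shares of cells at matched depth differed in the same direction. In cells thinned to 1000 UMIs, 40.1% (34.9 to 45.4) of the injured astrocyte-like cells had an Hspb1 UMI, against 0.102% (0.021 to 0.299) of the uninjured ones; unthinned, the shares were 60.6% and 0.433%. Thinned Cryab was detected in 40.1% of injured and 9.24% (8.22 to 10.3) of uninjured cells, and Hspb8 in 7.95% and 0.682%. Microglia are not known for these proteins and so gauge RNA from other cells, free or in mixed barcodes. Hspb1 was found in 0.826% (0.021 to 4.52) of the injured microglia-like cells at the same depth, beside 3.31% for Gfap. The astrocyte-like level of Hspb1 was 67.8-fold (46.2 to 104) that of microglia-like cells in the injured library, and that of Cryab 68.2-fold. Few microglia-like cells set these values. The richest held 6 of 26 Hspb1 UMIs, with 65 endothelial-marker and 10 microglia-marker UMIs, and another held 14 of 27 Cryab UMIs. Median depths before thinning were 3934 UMIs in the astrocyte-like and 14070.5 in the microglia-like cells.

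**Figure D1:**
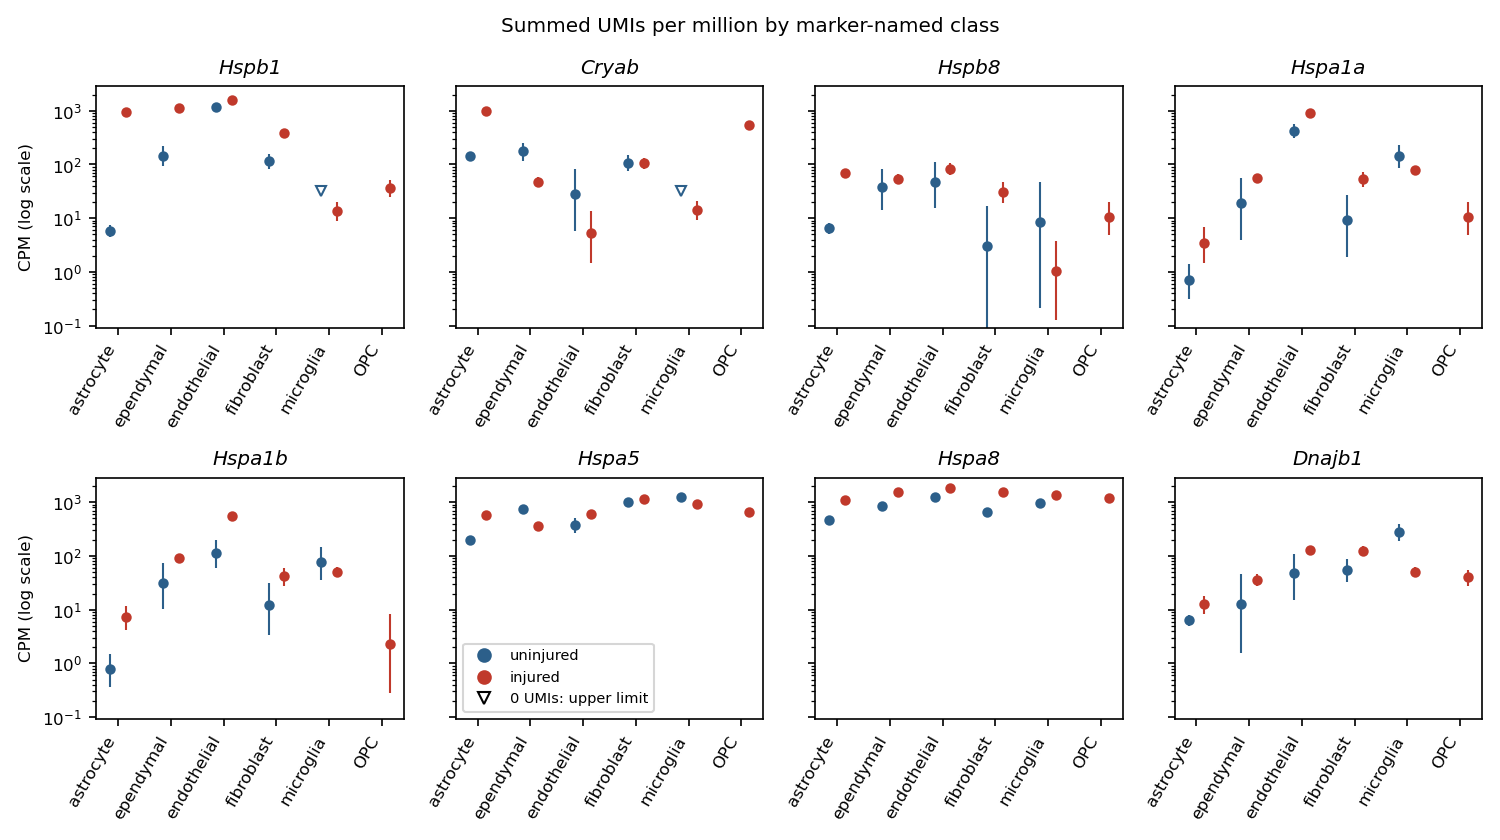
Level of each chaperone in CPM (log axis) by cell class, in injured and uninjured libraries, with exact Poisson 95% intervals as bars. Open triangles are the upper limit where no UMI was counted, and OPC-like cells are shown for the injured library alone. Hspb1 in astrocyte-like cells runs from 5.87 to 933 CPM, and Hspa1a and Hspa1b are highest in endothelial-like cells.

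The HSP70 genes that astrocytes use constitutively differed less between the conditions. Hspa8 was at 1094 CPM in injured and 461 CPM in uninjured astrocyte-like cells, a log2 ratio of 1.25 (1.18 to 1.32) that was 0.74 at a finer clustering (Leiden resolution 1.0), under 2-fold. It was detected in 55.4% and 35.9% of cells at 1000 UMIs. Hspa5 was at 573 and 200 CPM, a log2 ratio of 1.51 (1.42 to 1.62), and was detected in 32.1% and 17.0% of cells. Dnajb1, the J protein that is induced together with Hspa1a in classic heat shock, measured 12.5 and 6.32 CPM from 29 and 71 UMIs. Its log2 ratio of 0.88 (0.31 to 1.62) was under 2-fold. It was 1.10 in cells with an Aldh1l1 UMI, past 2-fold, and 0.03 at the finer clustering.

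Hspa1a and Hspa1b, the genes most used as a readout of heat shock, were close to the detection limit in astrocytes. Hspa1a gave 8 UMIs in 386 injured cells (3.44 CPM) and 8 UMIs in 2999 uninjured cells (0.712 CPM), a log2 ratio of 1.38 (0.66 to 3.89). Hspa1b gave 17 and 9 UMIs (7.32 and 0.801 CPM), a log2 ratio of 2.21 (1.95 to 4.54). These intervals belong to the ratios without the added CPM, which for Hspa1b was 3.19. With 1 CPM added both ratios were past 2-fold, on levels below the 10 CPM minimum. With 10 CPM added both were under 2-fold (0.33 and 0.68). At 1000 UMIs Hspa1a was detected in 0.568% of injured astrocyte-like cells. The pair shares much of its sequence: 58.8% of the 50-base windows of the Hspa1a transcript also occurred in Hspa1b, but 0 of 451 windows in its last 500 bases, the end that a 3' library mainly reads.

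**Figure D2:**
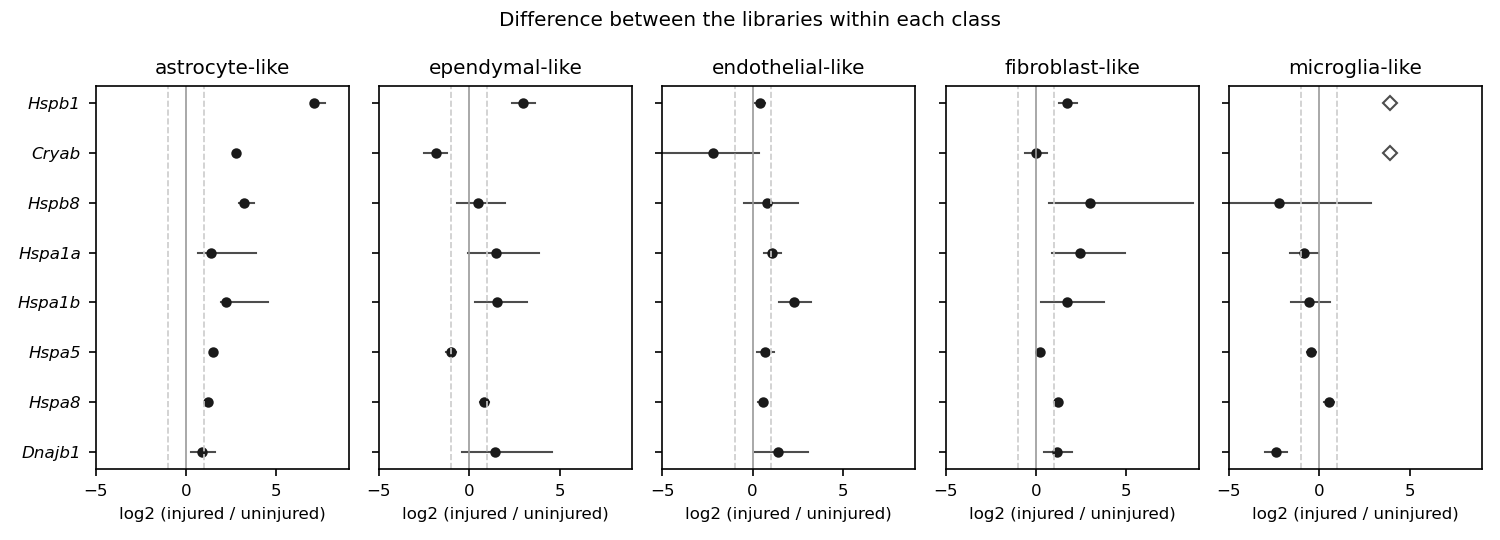
Log2 ratio of injured over uninjured CPM for each chaperone in 5 cell classes, with dashed lines at 2-fold. Bars are 95% counting intervals of the ratio without the added 1 CPM, clipped at the axis ends. Open diamonds had no UMI in the uninjured library. Small heat shock proteins lie far to the right in astrocyte-like cells, and Dnajb1 lies at -2.39 in microglia-like cells.

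The injured astrocyte-like cells were not uniform. At the finer clustering, 230 of the 386 cells fell in a larger subset and 80 in a smaller one. A further 25 and 27 cells lay in other astrocyte-like clusters. The rest were scattered, with 6 in the OPC-like and 3 in the microglia-like cluster. The smaller subset missed the minimum marker score and so took no class name at this clustering. The smaller subset held 63.5% of the injured Hspb1 UMIs and 68.0% of the Cryab UMIs. Its Hspb1 level was 2847 CPM (2698 to 3001), against 554 CPM (516 to 595) in the larger subset. Its Cryab level was 3182 CPM, against 465 CPM in the larger subset. In the further 25 and 27 cells Cryab was at 77.4 (21.1 to 198) and 55.3 CPM (25.3 to 105), from 4 and 9 UMIs. Hspb1 was at 58.0 and 36.9 CPM there, and Hspa8 at 135 and 393 CPM. These subsets were drawn from the same cells and their contrast is a description. The larger subset alone was still far above the 5.87 CPM of Hspb1 and the 142 CPM of Cryab in uninjured cells.

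The other chaperones followed the split unevenly. Hspa8 was at 1868 CPM in the smaller and 928 CPM in the larger subset, Hspb8 at 151 and 58.0 CPM, and Dnajb1 at 26.9 and 6.45 CPM. The level of Dnajb1 in the larger subset was thus close to the 6.32 CPM of uninjured cells. Hspa5 was nearer between the subsets, at 761 and 592 CPM, both above the uninjured 200 CPM. Hspa1a (2.07 and 5.01 CPM) and Hspa1b (8.27 and 9.31 CPM) stayed low in both.

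Vim, another intermediate filament of reactive astrocytes, was at 5581 CPM in the smaller and 971 CPM in the larger subset. Astrocyte markers ran the other way, with Gja1 at 259 against 1342 CPM, Slc1a2 at 1316 against 3972 CPM and Aldoc at 465 against 2310 CPM. All 8 astrocyte markers summed to 3488 CPM in the smaller and 11912 CPM in the larger subset. The neuron marker list summed to 635 CPM in the smaller subset and 84.5 CPM in the larger, and the endothelial list to 47.6 and 8.60 CPM. The part of other cells' RNA in the chaperone levels of the smaller subset was not tested. Median depths were alike, 3792.5 and 4017.5 UMIs.

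**Figure D3:**
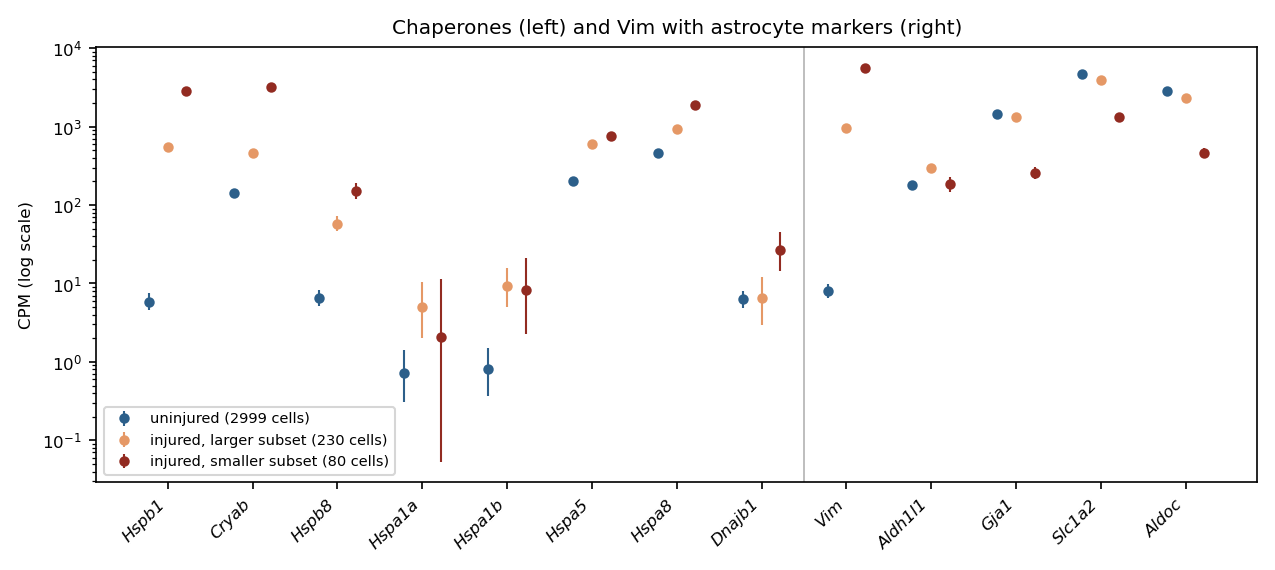
Level in CPM (log axis) of the 8 chaperones (left) and of Vim and 4 astrocyte markers (right) in the 2999 uninjured astrocyte-like cells and the 230-cell and 80-cell subsets of the injured ones, with 95% counting intervals. Hspb1 and Cryab are highest in the 80-cell subset, where Gja1, Slc1a2 and Aldoc are lowest. That subset took no class name at the finer clustering.

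Several chaperones were often detected in the same injured cell. At 1000 UMIs, at least 2 of the 8 were found in 56.0% of the astrocyte-like cells after injury and in 11.4% without, and at least 3 in 29.8% and 0.784%. Such shares rise with the share of each single gene, and joint detection beyond that was not tested. Cryab was detected in 63.1% (54.6 to 71.1) of the 141 injured cells with an Hspb1 UMI and in 24.6% (19.0 to 31.0) of the 211 without. Hspa8 was detected in 73.8% and 43.1% of the same cells, and Hspb8 in 14.2% and 3.79%. Hspa5 differed little, with 34.0% and 30.8%. In uninjured cells the shares of Hspa5 with and without a Cryab UMI were 17.0% and 17.1%. These shares describe cells of 1 library each, and cells are not replicates.

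Hspb1 and Cryab were also higher in cells with other RNAs of the reactive state. Injured cells with a UMI of Lcn2 or Timp1, secreted proteins of reactive astrocytes, had 1342 CPM of Hspb1 and 1386 CPM of Cryab (175 cells), against 404 and 440 CPM in the 211 cells with neither. The first set was deeper, with medians of 4838 and 3066 UMIs. In the uninjured library the 490 cells with a Gfap UMI had 2.72 CPM of Hspb1 and 116 CPM of Cryab, and the 2509 cells without had 6.64 and 148 CPM. No order is read from these, since the single rich cell had no Gfap UMI and held 53 of the 60 Hspb1 and 360 of the 1338 Cryab UMIs of the cells without.

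Dissociation of fresh tissue induces immediate early genes, and heat shock genes can respond to it as well. The immediate early list summed to 921 CPM in injured and 274 CPM in uninjured astrocyte-like cells, the lowest of the classes in each library. Hspb1 was detected in 9 of the 22 injured astrocyte-like cells with a Fos UMI (40.9%) and in 132 of the 330 without, at 1000 UMIs. In the uninjured library it was detected in 2 of 53 astrocyte-like cells with a Fos UMI (3.77%) and in 1 of 2880 without. At 2000 UMIs that order was not kept, with 0 of 62 uninjured cells with a Fos UMI and 6 of 2348 without. Among astrocyte-like cells with no Fos UMI the log2 ratio was 8.92 for Hspb1 and 3.04 for Cryab, near the 8.70 and 2.99 without the richest cells, since the rich uninjured cell had 2 Fos UMIs and was left out here too. The part of dissociation in the chaperone levels was not tested.

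Across classes, each chaperone had its own order of levels. In the injured library Hspb1 ran from endothelial-like (1572 CPM) through ependymal-like (1140), astrocyte-like (933), fibroblast-like (390) and OPC-like (36.3) to microglia-like cells (13.8), with every neighbouring pair apart by more than its counting interval. In the uninjured library endothelial-like cells led with 1170 CPM, ependymal-like (145) and fibroblast-like (116) cells did not differ beyond their intervals, and astrocyte-like cells were lowest among the classes with a UMI. Cryab had another order. It was highest in injured astrocyte-like cells, followed by OPC-like cells with 534 CPM from 456 UMIs, and it was nearly absent from endothelial-like cells (5.34 CPM from 4 UMIs). In the uninjured library the Cryab levels of ependymal-like (177), astrocyte-like (142) and fibroblast-like cells (107 CPM) did not differ beyond their intervals between neighbours.

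Ependymal-like cells, which line the central canal, shared the higher Hspb1 with astrocytes but not the higher Cryab. Of the 8 chaperones, 2 were at least 2-fold higher in the injured library, against 2.94% of 10798 genes, and 2 were lower, against 7.46%. Hspb1 was at 1140 CPM after injury and 145 CPM without, from 1932 and 23 UMIs, a log2 ratio of 2.97 (2.38 to 3.64). Cryab was at 47.8 and 177 CPM, a log2 ratio of -1.86 (-2.52 to -1.21). That Cryab value rested on 1 uninjured cell with 16 of the 28 UMIs, and without the richest cell of each library it was -0.85 (-1.76 to 0.15). Hspa5 was at 365 and 744 CPM, a log2 ratio of -1.03 (-1.31 to -0.73) that was -0.42 among male-scored and -0.75 without the richest cells, both under 2-fold. Hspa1b was the other higher gene, with 92.0 against 31.5 CPM from 156 and 5 UMIs, a log2 ratio of 1.52 (0.29 to 3.19) that was 0.87 (-1.19 to 4.04) in thinned cells, under 2-fold. Ependymal markers summed to 2174 CPM after injury and 5199 CPM without, and astrocyte markers to 1143 and 1779 CPM. Gfap was at 786 CPM in injured ependymal-like cells and had 0 UMIs in uninjured ones. The part of these marker differences in the ratios was not tested.

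Endothelial-like cells carried the inducible pair. Hspa1a was at 903 CPM in injured endothelial-like cells, 11.4-fold (9.52 to 13.7) over microglia-like cells, the next class, and 425 CPM in uninjured ones. The 10 richest of the 70 injured endothelial-like cells held 70.7% of their Hspa1a UMIs. A single injured microglia-like cell held 93 of the 150 in that class. The log2 ratio of Hspa1a between the conditions was 1.09 (0.65 to 1.56) in endothelial-like cells. It was 1.51 without the richest cell of each library, since 1 uninjured cell held 19 of 45 UMIs. Among male-scored cells it was 2.95, from 386 and 13 UMIs. Hspa1b was at 554 and 113 CPM, a log2 ratio of 2.28 (1.47 to 3.26), and Dnajb1 at 127 and 47.2 CPM from 95 and 5 UMIs, a log2 ratio of 1.41 (0.15 to 3.08). The Dnajb1 value lost its clear interval without the richest cells, at 1.38 (-0.01 to 3.31), and was 0.62 in thinned cells from 4 and 1 UMIs.

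These were the 3 of 8 chaperones called higher in endothelial-like cells, against 2.25% of 9231 genes, with none lower against 6.1%. Hspb1 was high in both libraries, 1572 and 1170 CPM, a log2 ratio of 0.43 (0.16 to 0.70). Endothelial-like cells also had the most immediate early RNA in each library, 15859 CPM injured and 20763 CPM uninjured. Uninjured microglia-like cells were close to the latter, at 20382 CPM, with a lower Hspa1a level of 145 CPM. At 1000 UMIs, Hspa1a was detected in 46.2% (26.6 to 66.6) of the 26 injured endothelial-like cells with a Fos UMI and in 12.2% (4.1 to 26.2) of the 41 without. Hspb1 was less uneven in these injured cells, with 69.2% and 58.5%. At 2000 UMIs the injured Hspa1a shares were 74.2% and 16.1%. The uninjured library, with few cells, did not keep this contrast between the genes. At 1000 UMIs its shares with and without Fos were 87.5% and 60% for Hspb1, and 25% and 10% for Hspa1a. At 2000 UMIs its Hspa1a shares ran the other way, with 30.8% and 62.5%. Mural markers summed to 34.7 CPM in injured and 906 CPM in uninjured endothelial-like cells, and astrocyte markers to 86.8 and 547 CPM. Their part was not tested.

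**Figure D4:**
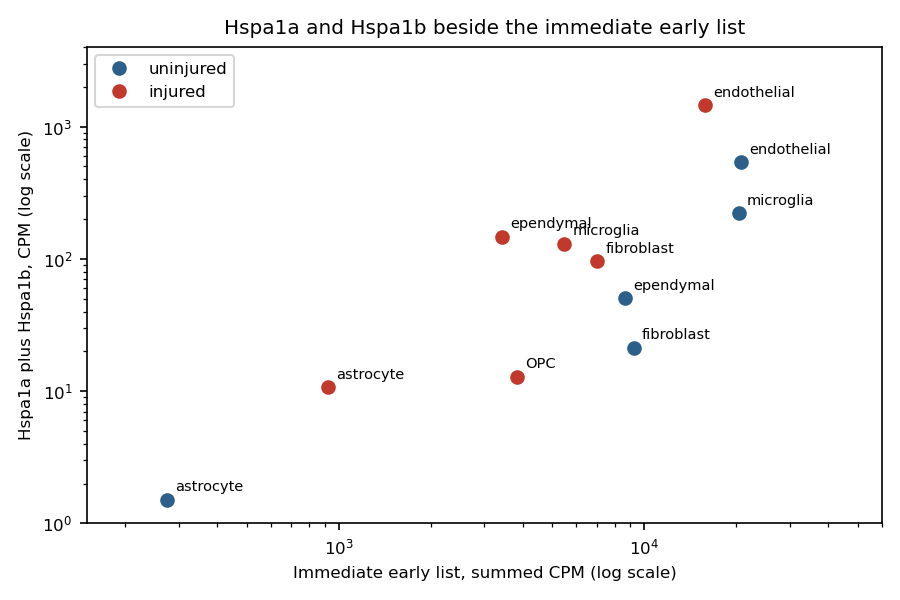
Summed level of Hspa1a and Hspa1b (CPM) against the summed level of the immediate early gene list (CPM), both on log axes, for 11 pools of cells by class and condition. Endothelial-like pools lie at the upper right and astrocyte-like pools at the lower left. The uninjured microglia-like pool lies nearly as far right as the uninjured endothelial-like one, but lower.

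In microglia-like cells the called share of the chaperones was near that of all genes. Dnajb1 was the only chaperone called there, with 51.3 CPM after injury against 274 CPM without, a log2 ratio of -2.39 (-3.01 to -1.79); thinned to 1000 UMIs per cell, it was -1.67 (-4.26 to 1.07) from 4 and 3 UMIs. None of the 7 tested was called higher, against 4.09% of 8857 genes, and 1 was lower, against 13%. Hspa1a was at 79.4 and 145 CPM, a log2 ratio of -0.87 (-1.60 to -0.06). A single injured cell held 93 of 150 Hspa1a and 66 of 97 Hspa1b UMIs, and without the richest cells the ratio of Hspa1a was -1.52 (-2.53 to -0.41) and that of Hspa1b turned from -0.58 to 0.83 (-1.69 to 6.24). Hspa5 was at 935 and 1266 CPM (-0.44) and Hspa8 at 1395 and 966 CPM (0.53). Hspb1 and Cryab had 0 UMIs in uninjured microglia-like cells, which allows up to 31.6 CPM, so a difference from the injured 13.8 and 14.3 CPM was not detectable at this depth. Immediate early genes summed to 5483 CPM after injury and 20382 CPM without, with 14 of 18 lower by 2-fold and none higher. Macrophage markers summed to 859 CPM in injured and 1617 CPM in uninjured microglia-like cells, and neutrophil markers to 555 and 214 CPM. The part of these other cell types in the ratios was not tested.

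Fibroblast-like cells had 6 of the 8 chaperones at least 2-fold higher in the injured library, against 8.61% of 10285 genes, and none lower, against 10.5%. Hspb1 was at 390 and 116 CPM, a log2 ratio of 1.74 (1.26 to 2.28), Hspa8 at 1529 and 667 CPM (1.20, 0.99 to 1.41) and Dnajb1 at 125 and 54.8 CPM (1.17, 0.45 to 2.01). Among male-scored cells Hspa8 fell short of 2-fold at 0.79. The class held a cluster of 48 cells that was uninjured throughout. Within the cluster found in both libraries (43 and 47 cells) the log2 ratio of Hspb1 was 0.76 (0.21 to 1.36), under 2-fold, and that of Cryab turned from -0.02 to -1.21 (-1.83 to -0.58). Dnajb1 was at 1.68 there, and at 0.54 (-3.03 to 3.68) in all fibroblast-like cells thinned to 1000 UMIs, from 2 and 3 UMIs. Hspb8, Hspa1a and Hspa1b had 1, 3 and 4 UMIs in uninjured cells, and log2 ratios of 2.96, 2.44 and 1.69. Hspb8 and Hspa1b no longer had intervals clear of no difference in the shared cluster, with 1.86 (-0.64 to 7.36) and 1.38 (-0.54 to 4.55). Hspa1a and Hspa1b lost theirs among male-scored cells, with 1.66 (-0.19 to 4.21) and 1.78 (-0.04 to 4.32).

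Hspa8 and Hspa5, which all cells use, had narrower ranges over the classes. In the injured library Hspa8 ran from 1094 CPM in astrocyte-like to 1806 CPM in endothelial-like cells, and Hspa5 from 365 CPM in ependymal-like to 1167 CPM in fibroblast-like cells. Astrocyte-like cells were lowest for Hspa5 in the uninjured library. In the injured library their Hspa5 level did not differ from that of endothelial-like cells (613 CPM) beyond the interval, and it was 0.862-fold (0.780 to 0.952) that of OPC-like cells (665 CPM).

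The share of Hspa1a in the UMIs of the inducible pair differed between classes. It was 62.0% (59.0 to 64.9) in injured endothelial-like and 60.7% (54.3 to 66.9) in injured microglia-like cells, but 37.3% (31.3 to 43.7) in injured ependymal-like cells. In uninjured endothelial-like cells it was 78.9% (66.1 to 88.6).

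Over 11 pools of cells by class and condition, the chaperones did not share 1 pattern. The Pearson correlation of log2 levels was 0.937 between Hspa1a and Hspa1b and 0.755 between Hspb1 and Hspb8, but 0.334 between Hspb1 and Cryab, and -0.741 between Cryab and Hspa1a. The genes nearest to Hspb1 among 8668 were Tm4sf1 (0.946), Hist1h1c (0.929), Avpi1 (0.919), Crip2 (0.912) and Layn (0.891). Those nearest to Cryab were Timm9 (0.958), Hotairm1 (0.936), Cadm4 (0.930), Rnf144a (0.923) and Gstm5 (0.923). Those nearest to Hspa1a were Klf10 (0.950), Ap1s2 (0.949), Mgat4b (0.949), Irf9 (0.948) and Klf4 (0.941). The pools share libraries and differ in depth, so these are descriptions without a p-value.

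Other chaperone lists were counted in astrocyte-like cells beside the members, by the same 2-fold rule, against the 16.7% of all genes called higher. HSP90 and the chaperonins were the most uniform, with 13 of 14 higher, none lower and a median log2 ratio of 1.28. Hsp90aa1, the inducible cytosolic HSP90, was at 614 and 139 CPM, a log2 ratio of 2.14, and the mitochondrial pair Hspd1 and Hspe1 was at 1.78 and 1.73. Hsp90ab1 was at 1.34. The small heat shock proteins had 4 of 5 tested higher, 3 of them members, and the fourth was Hspb6, at 34.4 against 2.40 CPM, a log2 ratio of 3.38. Hspb9 and Cryaa were at 0 in both libraries.

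The HSP70 and HSP110 list had 4 of 10 higher, with Hsph1 and Hyou1 both at 1.03 beside Hspa5 and Hspa8; in thinned cells Hyou1 turned to -0.10. Of the cytosolic J proteins and cochaperones 4 of 22 were higher, near the share of all genes, with Fkbp5, a steroid receptor cochaperone, at 3.39, Dnaja1 at 1.16, St13 at 1.13 and Bag3, the partner of Hspb8, at 1.06. Endoplasmic reticulum chaperones and genes of the unfolded protein response had 14 of 27 higher with a median of 1.03, among them Sdf2l1 (2.15), Ppp1r15a (1.69), Creld2 (1.68) and Pdia4 (1.66). The heat shock factors had 1 of 3 higher, Hsbp1, an inhibitor of Hsf1, at 1.09. Hsf1, the master regulator of the heat shock response, was at -0.73 (-1.46 to -0.17) and Hsf2 at 0.23. The immediate early list had 10 of 13 higher, with a median of 2.63 and Cebpd (4.86), Socs3 (3.93), Ier3 (3.44) and Atf3 (3.42) in front. No gene of these lists was 2-fold lower in injured astrocyte-like cells.

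**Figure D5:**
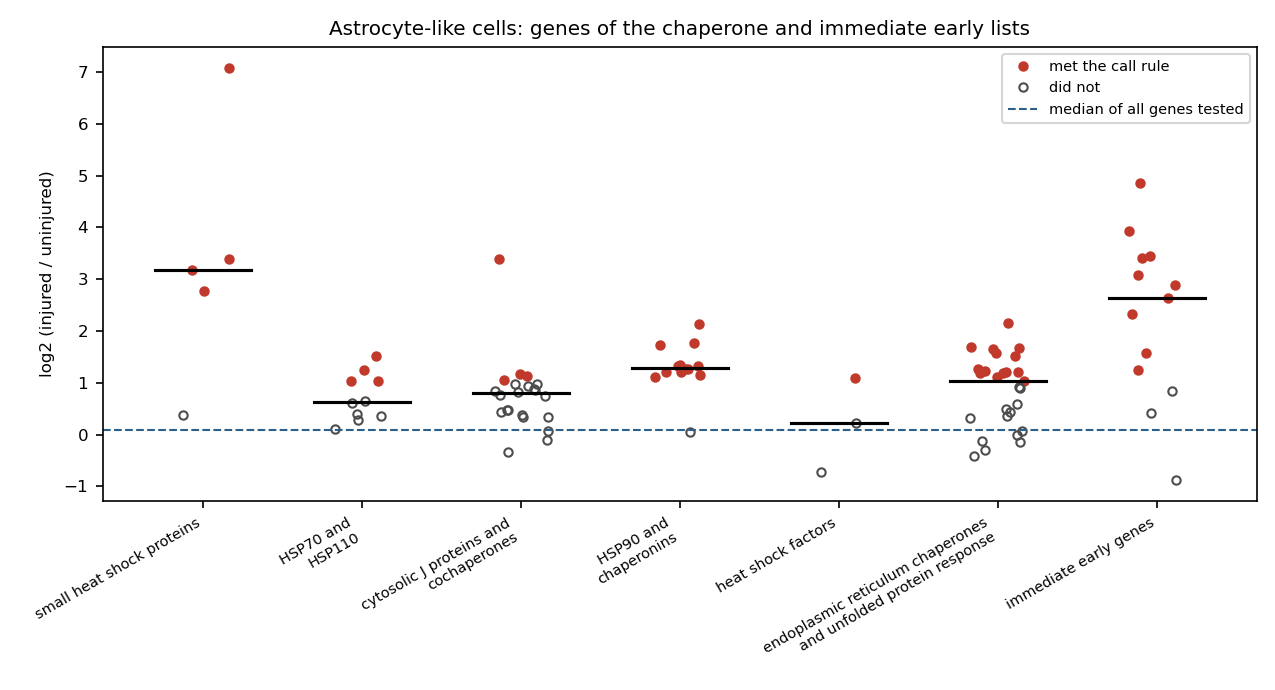
Log2 ratio of injured over uninjured CPM in astrocyte-like cells for each gene tested, by list; filled points met the 2-fold rule, black lines are list medians and the dashed line is the median of all genes, 0.085. Small heat shock proteins (median 3.19) and immediate early genes (median 2.63) lie highest.

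The difference of the HSP90 and chaperonin list between classes was not tested. In the other classes 0 of 14 genes were higher in ependymal-like cells (2.94% of all genes), 2 in the microglia-like (4.09%), 3 in the endothelial-like (2.25%) and 4 in the fibroblast-like class (8.61%), with none lower. The astrocyte counts were smaller at the finer clustering, where Hsp90ab1 was at 0.82, Hspd1 at 0.99, Dnaja1 at 0.54, St13 at 0.77 and Hsph1 at 0.64, all under 2-fold, as was the chaperone Hspa8 at 0.74. There the 80 cells went unnamed and other cells joined the class, among them a cluster led by mitochondrial genes with 41 injured and 116 uninjured cells, so that it held 342 injured and 3405 uninjured cells.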

How the data were processed

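The 2 gene expression matrices of UMI counts per gene and cell, 1 per condition, were used as the authors deposited them; the barcode enrichment libraries were not used here. The labels name Cell Ranger 8.0.1 and mm10, and the matrix headers Cell Ranger 7.1.0. The 8 chaperones and the gene lists were chosen with earlier results of these data known. Cells above 500 and below 50000 gene UMIs entered the comparison (40 injured barcodes exceeded the upper limit), scaled to 10000, log-transformed and clustered (scanpy 1.11.5, igraph 0.11.9; 2000 variable genes without the chaperone lists, 15 components, 15 neighbours, Leiden resolution 0.5, seed 1). Clusters took a class by marker score above 0.2, with 3 markers in at least 10% of cells; this rule replaced a first score that left most astrocyte clusters unnamed. The 2 unnamed clusters had leading neuron genes, though their highest score was for astrocyte markers. Scrublet marked 2 of 5038 cells (0.0397%), so it had not worked, and no doublets were removed.

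UMIs were summed per class and condition and divided by the total (CPM). A call was a log2 ratio with 1 CPM added of at least 1 or at most -1 and a 95% interval (conditional binomial, scipy 1.17.1) clear of 0, for genes that reached 10 CPM in either condition. The interval was computed for the ratio without the added CPM. Levels have exact Poisson and shares Clopper-Pearson intervals. Classes with fewer than 20 cells were left out. Shares were compared at 1000 UMIs per cell. Likeness was taken over genes that reached 50 CPM in any pool. Totals were 8499672 UMIs injured and 15543460 uninjured. Named genes were the 8 chaperones, up to 4 per list with the largest absolute ratio, and the 5 most alike; Gfap, Vim, Hmox1, Fos, Lcn2, Timp1 and the markers named beside the subsets were chosen after their values were seen. On simulated counts for the astrocyte comparison (32287 genes, 9213 tested), 100.0% of 200 genes changed 4-fold were recovered and 0.0777% of unchanged genes were called. The changed genes were picked among those at 10 CPM or more, and the counts carried counting error alone. The check cannot show how the rule behaves with spread between cells or libraries, and no error rate of the real calls is read from it.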

Additional observations from a re-analysis of the deposited data

Results flagged for a closer look

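Several chaperones had a ratio clear of no difference in 1 direction in some classes and in the other direction elsewhere. The differences between classes were not tested. Cryab had a log2 ratio of 2.77 in astrocyte-like and -1.86 in ependymal-like cells. Without the richest cell of each library the ependymal-like value was -0.85 and no longer clear of no difference. Hspa1a was at 1.38 among astrocyte-like cells, 1.09 among endothelial-like ones and 2.44 among fibroblast-like ones, and at -0.87 in microglia-like cells. Its astrocyte-like value rested on 8 UMIs in each library, on levels below the 10 CPM minimum. Hspa5 was at 1.51, 0.70 and 0.22 in astrocyte-like, endothelial-like and fibroblast-like cells, and at -1.03 and -0.44 in ependymal-like and microglia-like cells. The fibroblast-like value of Hspa5 reversed to -0.32 in thinned cells. Dnajb1 was at 0.88, 1.41 and 1.17 in astrocyte-like, endothelial-like and fibroblast-like cells, and at -2.39 in microglia-like cells. In thinned cells Dnajb1 rested on few UMIs in the endothelial-like (0.62), fibroblast-like (0.54) and microglia-like classes (-1.67), and was no longer clear of no difference there.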

How the results depend on the processing

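No paired analysis was possible because there was 1 library per condition, and no replicate could be left out. Counted without the 10 CPM minimum, which brings in Hspa1a and Hspa1b, 7 of 8 chaperones were past 2-fold higher in injured astrocyte-like cells, 5 to 8 over 15 alternatives, and 0 lower; none changed direction there. For Hspb1, Cryab and Hspa1a, the log2 ratios that moved past their interval were as follows. With 10 CPM added, Hspb1 was 5.89, Hspa1a 0.33 and Hspb1 over microglia-like cells 5.31. As a mean of per-cell CPM, Hspb1 was 8.07 and Cryab 3.38. Thinned, Hspb1 was 7.89, Cryab 3.40 and Hspb1 over microglia-like cells 6.92. Centred on the median, Cryab was 2.69. At resolution 1.0, Cryab was 1.71 and Hspb1 over microglia-like cells 4.93. In cells with an Aldh1l1 UMI, Hspb1 was 6.61 and Cryab 1.95. With unnamed clusters counted, Cryab was 2.57. In male-scored cells, Hspb1 was 6.55 and Cryab 2.06. Without the highest 5% of Scrublet scores, Hspb1 was 6.91 and Cryab 2.64. With no Fos UMI, Hspb1 was 8.92 and Cryab 3.04. Without the richest cells (like the shared fibroblast-like cluster, an alternative chosen after seeing the data), Hspb1 was 8.70 and Cryab 2.99. Of 16 alternatives each, Hspa8 moved in 9 (0.74 to 1.33), Hspa5 in 6 (1.33 to 1.60), and Hspb8 (2.23 to 3.51), Hspa1b (0.68 to 3.19) and Dnajb1 (0.03 to 1.10) in 2; the ranges are over all 16. The share of all genes called higher ran from 8.64% (resolution 1.0) to 19.4%, and lower from 3.90% (10 CPM added) to 12.3% (mean of per-cell CPM). Of 27 other named genes, 290 of 410 values stayed within their interval and 119 moved; Hyou1 reversed to -0.10 when thinned. In the other classes 177 of 198 values stayed and 19 moved; Hspa5 in fibroblast-like cells reversed to -0.0096 in male-scored and -0.32 in thinned cells. Uninjured classes other than astrocytes had 26 to 95 cells where compared, which limits their ratios.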
